A study of Homo sapiens with 8 samples.

Results

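The 44 genes described here encode proteins of ribosome biogenesis: subunits and factors of RNA polymerase I, the core proteins of the small nucleolar ribonucleoproteins (snoRNPs), nucleolar scaffold proteins, and factors that assemble the small and the large ribosomal subunit. They are a list of gene symbols grouped by known role. No measured value enters the rule, but the list was drawn up with earlier results of these data known, so its counts are a description. Each of the 44 symbols matched 1 of the 61806 genes in the deposited count table. All 44 passed the filter on low counts, which left 14893 genes to test. The lowest of them was NOP2, with 90 to 196 counts per library.

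Ribosomes are made in the nucleolus. RNA polymerase I transcribes the ribosomal DNA repeats into a long precursor, box C/D and box H/ACA snoRNPs guide the methylation and pseudouridylation of this precursor, and a succession of assembly factors folds, cuts and exports it as the small and the large subunit. Making ribosomes is among the costliest tasks of a growing cell, and the genes for these factors are expressed in almost every cell type.

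mRNA was sequenced from wild-type N/TERT-1 cells, an immortalized human epidermal keratinocyte line, so the results hold for 1 line. The cells were treated with ethanol, the solvent control, or with oligomycin and antimycin A (O/A), inhibitors of mitochondrial ATP synthase and of respiratory chain complex III, for 4 hours as given with the study's plots of these data. There were 4 libraries per group, described as biological replicates from independent experiments, and p-values measure the spread between these libraries. The question asked of the data here was which ribosome biogenesis genes were higher or lower in O/A, a treatment used to depolarize mitochondria.

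Libraries held 17210404 to 20999927 counted reads. Counts of 11727 well-covered genes differed more between groups (chi-square per degree of freedom 52.9 to 64) than within a group (1.76 to 5.74), and no pair of libraries agreed within sampling noise. All 6 keratinocyte markers examined were tested, with a summed level of 2965 to 3206 FPKM (fragments scaled to gene length and library size) in ethanol and 2612 to 2748 in O/A. KRT5, a keratin of the basal layer, was downregulated (log2(FC) -0.30). The other keratinocyte markers were not called, with KRT14 at -0.09, TP63 at -0.05, LAMA3 at 0.08, ITGA6 at 0.14 and ITGB4 at 0.15. The part of the lower summed level in the results that follow was not tested. The summed level of 6 fibroblast markers was 2.42 to 2.95 FPKM in ethanol and 2.45 to 2.69 in O/A, that of 5 melanocyte markers was 1.35 to 1.81 and 1.25 to 1.71 with MLANA and TYR at 0, and 4 leukocyte markers never exceeded 5 counts.

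The mRNA of most of the 44 genes was lower in O/A by a modest amount, and none of the 44 was higher past the thresholds. By edgeR's quasi-likelihood test, 27 of the 44 genes (61.4%) were downregulated, meaning that the log2(FC) was below -0.25 with an adjusted p-value no higher than 0.05, and 0 were upregulated. Of all genes tested, 34.7% were called in either direction, 18.9% downregulated and 15.8% upregulated. The median log2(FC) of the 44 genes was -0.32, against -0.0004 over all genes tested, and single genes ranged from -1.28 (RRS1) to 0.16 (NOP10). The log2(FC) was below 0 for 40 of the 44 genes (90.9%), and for 50.1% of all genes tested. In bulk RNA, less mRNA per cell and fewer cells of a kind cannot be told apart, and each value is relative to the rest of the library.

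**Figure D1:**
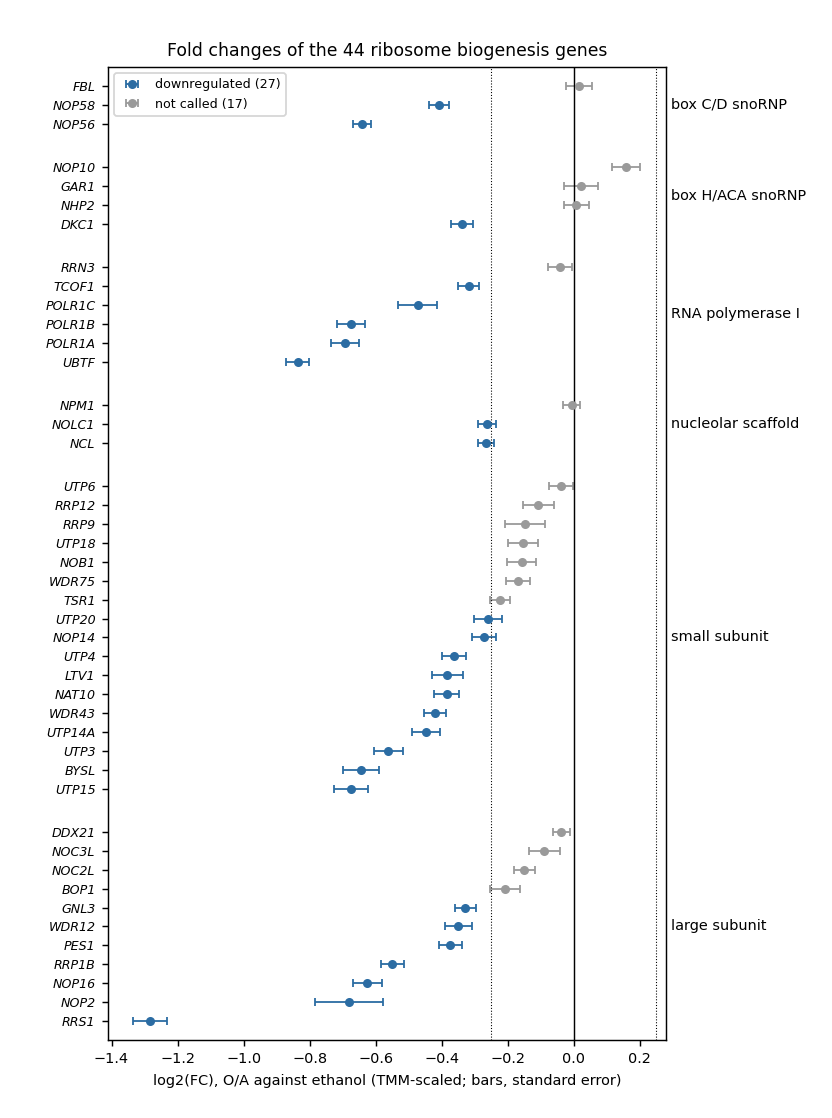
The log2 fold change of each of the 44 genes in O/A against ethanol (x axis) is shown with its standard error, grouped by role, with blue points for downregulated genes, grey points for genes not called and dotted lines at -0.25 and 0.25. Blue points fill most of the RNA polymerase I group, where 5 of 6 genes were downregulated, and RRS1 lies farthest from 0 at -1.28.

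The libraries of the treatments were often fully separate. For 34 of the 44 genes (77.3%) every O/A library lay below every ethanol library, and for 0 genes above, whereas 24.8% of all genes tested had all O/A libraries below and 47.6% did not overlap in one direction or the other. On the adjusted p-value alone 35 genes passed. Of these, 8 had a log2(FC) inside the threshold and are not counted as changed, 7 lower and 1 (NOP10) higher in O/A. The 44 genes together took 0.659%, 0.658%, 0.660% and 0.643% of the reads in the ethanol libraries and 0.542%, 0.541%, 0.536% and 0.532% in the O/A libraries. Their share in O/A was thus 82.1% of that in ethanol, and 79.0% without NCL and NPM1, which hold the most reads per length. By role, the share in O/A was 69.9% of that in ethanol for the RNA polymerase I genes, 72.5% for box C/D, 90.8% for box H/ACA, 87.2% for the scaffold proteins, 78.7% for the small and 82.7% for the large subunit.

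**Figure D2:**
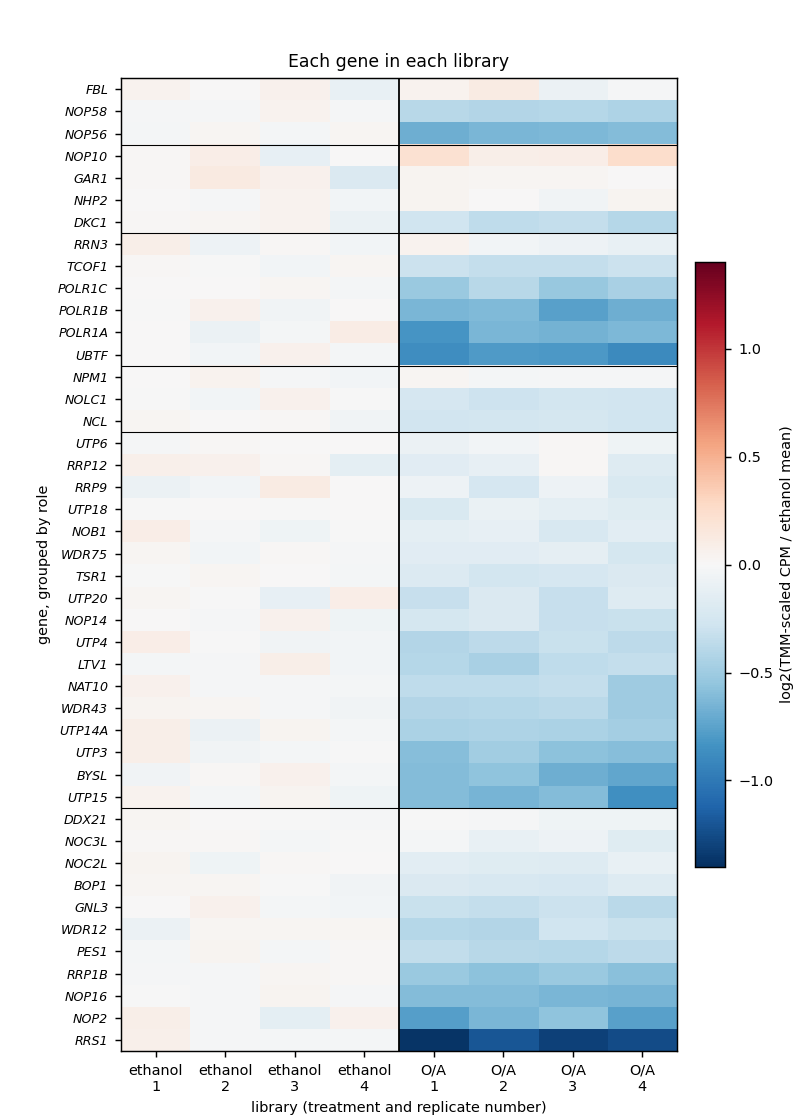
Each cell gives the log2 of a gene's TMM-scaled CPM (counts scaled to library size) over its mean in the ethanol libraries, with genes in rows grouped by role and the 8 libraries in columns (blue, lower; red, higher). In 34 of the 44 rows every O/A library lies below every ethanol library.

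The genes for RNA polymerase I and its factors had the lowest median log2(FC) of the 6 role groups, -0.57, and 5 of 6 were downregulated. This holds for the genes listed, since of 10 other RNA polymerase I genes 3 were downregulated and 1 upregulated, with a median of -0.23. UBTF encodes the upstream binding factor, which occupies the ribosomal DNA and keeps it open for transcription (chr17:44205033-44221626, minus strand, GRCh38). Its CPM (counts scaled to library size, here with TMM factors) were 123, 118, 126 and 119.8 in ethanol and 66.6, 70.4, 69.8 and 65.8 in O/A. The groups were far apart, with O/A at 56.0% of ethanol (log2(FC) -0.84, SE 0.0351, adjusted p = 1.59e-26). Per length, UBTF fell from 17.7 ± 0.575 to 9.58 ± 0.332 FPKM (SD, n = 4).

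POLR1A encodes the largest catalytic subunit of RNA polymerase I (chr2:86020216-86106155, minus strand). It measured 103, 97.6, 101 and 111 CPM in the ethanol libraries and 58.0, 66.0, 65.2 and 66.6 CPM in the O/A libraries. The O/A libraries were all lower, replicate 1 the lowest of them (log2(FC) -0.69, SE 0.0417, adjusted p = 7.72e-17). POLR1B, the other large subunit of the catalytic core, fell by nearly the same amount, with a log2(FC) of -0.68. POLR1C, a subunit shared with RNA polymerase III, had a log2(FC) of -0.47, and TCOF1, which encodes the nucleolar protein treacle, -0.32. The reads of POLR1C are uncertain where exons of XPO5 and YIPF3 on the other strand overlap it. These genes share 6.32% and 2.34% of its exonic bases and hold 350% and 259% of its reads. Whether reads were counted by strand is not given in the sources used here. RRN3, which recruits the polymerase to the promoter, was not called, with a log2(FC) of -0.04 (adjusted p = 0.349). Genes named as its pseudogenes, RRN3P1 and RRN3P3 the highest, held reads equal to 9.71% of those on RRN3, so its value is uncertain.

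The box C/D snoRNP contains 3 of the 44 proteins. Its genes changed unequally, with 2 of 3 downregulated and a median log2(FC) of -0.41. NOP56 encodes a core protein that binds the guide RNA (chr20:2652593-2658393, plus strand). It measured 309.6, 323, 309.9 and 321 CPM in ethanol and 197, 202, 204 and 207 CPM in O/A. The O/A libraries were at 64.1% of ethanol on average, with no overlap (log2(FC) -0.64, SE 0.0272, adjusted p = 2.56e-26). NOP58 encodes the partner of NOP56 in the same particle (chr2:202265736-202303661, plus strand). It measured 132, 132, 139 and 132 CPM in ethanol and 102, 101, 101 and 99.3 CPM in O/A. It too was lower in every O/A library, but less so (log2(FC) -0.41, SE 0.0315, adjusted p = 4.48e-16). FBL encodes fibrillarin, the methyltransferase of the particle, and measured 130.2, 126, 131 and 117 CPM in ethanol and 129.9, 136.5, 119 and 124 CPM in O/A. These groups overlapped, with a log2(FC) of 0.02 (adjusted p = 0.748). The sign of this small value turned under other scalings, to -0.03 with library totals alone.

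The box H/ACA snoRNP also had genes that were called and genes that were not, with 1 of 4 downregulated and a median log2(FC) of 0.01. DKC1 encodes dyskerin, the pseudouridine synthase (chrX:154762742-154777689, plus strand), and measured 137, 138.5, 141 and 127 CPM in ethanol and 112, 106, 108 and 103 CPM in O/A. All O/A libraries were lower (log2(FC) -0.34, SE 0.0336, adjusted p = 1.91e-12). None of its 3 small partners in the particle was called. NOP10 (chr15:34339159-34343180, minus strand) measured 66.7, 70.2, 60.7 and 66.1 CPM in ethanol and 76.4, 69.8, 70.4 and 78.1 CPM in O/A. The groups overlapped by 1 O/A library, and the log2(FC) of 0.16 (SE 0.0426) stayed within the threshold at an adjusted p of 0.00158 in edgeR. GAR1 and NHP2 had a log2(FC) of 0.02 and 0.01 (adjusted p = 0.763 and 0.879), with signs that turned to -0.02 and -0.04 with library totals alone. NHP2 shares 28.0% of its exonic bases with RMND5B on the other strand, a gene with 29.1% of its reads, so its value is uncertain.

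Ratios between genes of 1 particle within the same library do not depend on how libraries are scaled. The ratio of NOP56 to FBL, per exonic length, was 1.03, 1.11, 1.02 and 1.19 in the ethanol libraries and 0.655, 0.640, 0.739 and 0.720 in the O/A libraries. Only its change is read here, since its level depends on the exonic lengths, 4950 bases for NOP56 and 2138 for FBL. In CPM, NOP56 stayed above FBL in O/A, at 197 or more against 136.5 or less. The ratio of DKC1 to NOP10 was 0.330 to 0.397 in ethanol and 0.226 to 0.262 in O/A, and that of DKC1 to GAR1 was 0.694 to 0.796 in ethanol and 0.563 to 0.595 in O/A. For the catalytic pair of RNA polymerase I the groups overlapped, with POLR1A to POLR1B at 0.631 to 0.743 in ethanol and 0.608 to 0.741 in O/A. In all, 21 pairs within 5 complexes were examined, and for 14 of them the groups did not overlap. The pairs were set from complex membership after the values were known, so they are a description and no p-value is given.

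**Figure D3:**
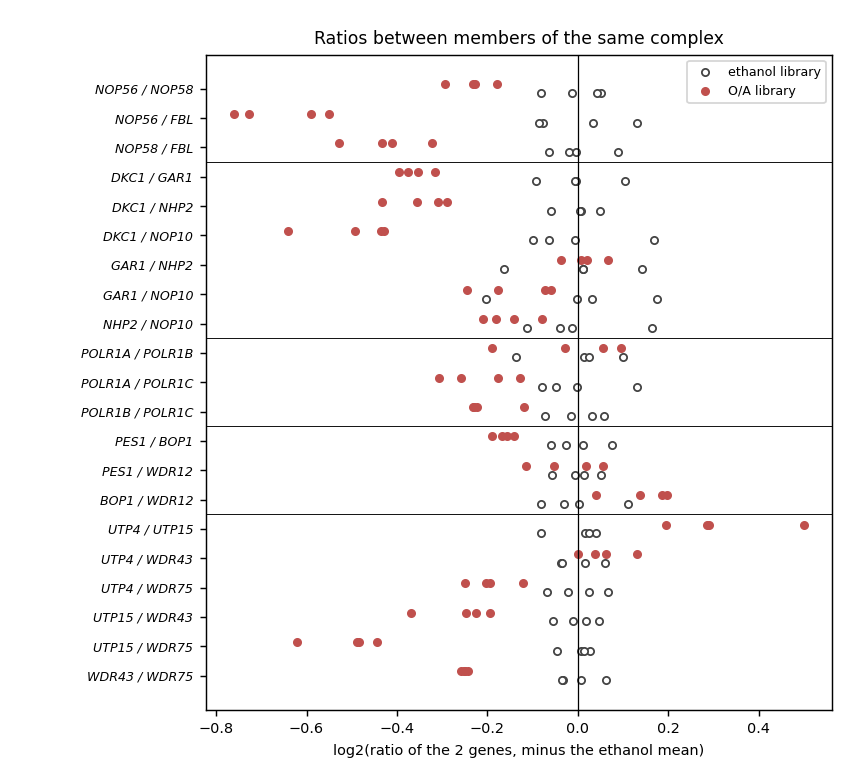
Each row is a pair of genes of the same complex, and the x axis is the log2 of their ratio per exonic length minus its mean in ethanol, with open circles for the 4 ethanol libraries and red circles for the 4 O/A libraries. The ratio of NOP56 to FBL moved most (mean log2 difference -0.66), and that of POLR1A to POLR1B overlapped between groups (-0.02).

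Nucleolar scaffold proteins hold the nucleolus together and chaperone pre-ribosomal particles, and per length their mRNAs were the most abundant of the 44 in ethanol. NCL encodes nucleolin (chr2:231453531-231483641, minus strand), and measured 1205, 1179, 1189 and 1143 CPM in ethanol and 977, 983, 991 and 971 CPM in O/A. All O/A libraries were lower by a small and even margin (log2(FC) -0.27, SE 0.0243, adjusted p = 1.44e-13), from 134 ± 3.01 to 108 ± 1.00 FPKM (SD, n = 4). NPM1 encodes nucleophosmin (chr5:171387116-171411810, plus strand), and measured 1046, 1082, 1037 and 1017 CPM in ethanol and 1066, 1029, 1034 and 1035 CPM in O/A. These groups overlapped, at 128 ± 3.32 and 123 ± 1.95 FPKM, and the log2(FC) was -0.01 (SE 0.0248, adjusted p = 0.843), a value whose sign turned with other settings and which was -0.12 under quantile normalization (adjusted p = 3.36e-06 in limma), inside the threshold. NOLC1 encodes a phosphoprotein that binds snoRNPs (chr10:102152176-102163871, plus strand), and measured 278, 272, 290.4 and 278 CPM in ethanol and 237, 229, 234 and 232 CPM in O/A. It was lower in each O/A library (log2(FC) -0.26, SE 0.0271, adjusted p = 6.4e-12), and lay at -0.24 without ethanol replicate 3 and at -0.25 without O/A replicate 2, both just inside the threshold.

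**Figure D4:**
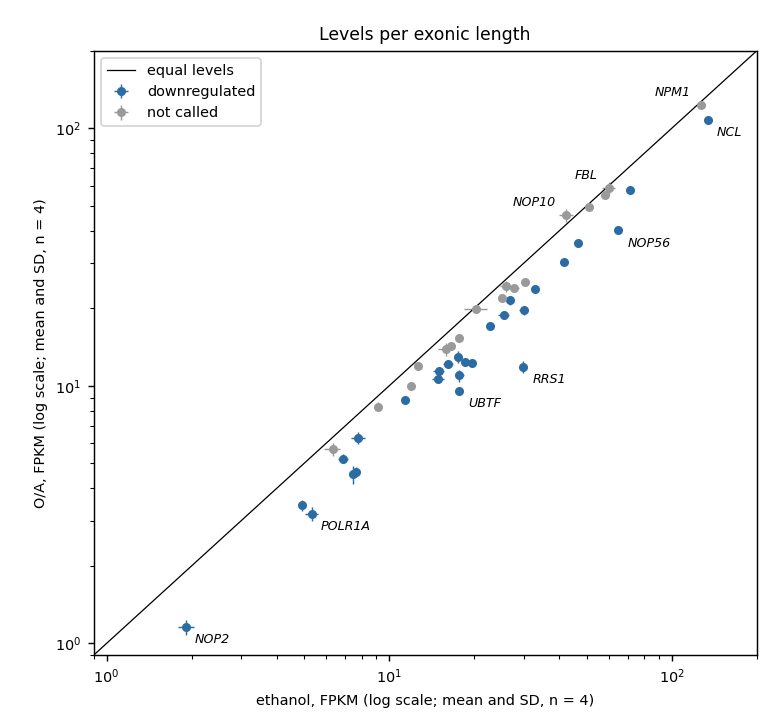
Mean FPKM in ethanol (x axis) and O/A (y axis) of the 44 genes on log scales, with the SD of 4 libraries, blue for downregulated genes and grey for genes not called. Levels span from NOP2, at 1.91 and 1.16 FPKM, to NCL and NPM1, and most points lie below the line of equal levels.

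The group for the small subunit processome and small subunit maturation has 17 members, of which 10 were downregulated and 7 not called, with a median log2(FC) of -0.27. UTP15, a subunit of the processome part that binds the precursor first (chr5:73565443-73583380, plus strand), measured 48.3, 45.8, 47.7 and 44.8 CPM in ethanol and 30.7, 29.7, 30.6 and 25.6 CPM in O/A. It had the lowest log2(FC) of the group, with all O/A libraries lower (log2(FC) -0.67, SE 0.0517, adjusted p = 3.23e-16). ANKRA2 on the other strand shares 3.56% of the exonic bases of UTP15, held 66.6% of its reads and rose, with a log2(FC) of 0.47. The reads of UTP15 are uncertain where these exons overlap. BYSL encodes bystin, which accompanies the pre-small subunit (chr6:41921499-41933046, plus strand), and measured 32.6, 34.3, 35.3 and 33.3 CPM in ethanol and 22.3, 22.9, 21.1 and 20.4 CPM in O/A. The groups did not overlap (log2(FC) -0.64, SE 0.0554, adjusted p = 1.78e-14).

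The other 8 downregulated genes of this group were the processome factors UTP3 (log2(FC) -0.56), UTP14A (-0.45), WDR43 (-0.42), UTP4 (-0.36), NOP14 (-0.27) and UTP20 (-0.26), the RNA acetyltransferase NAT10 (-0.38) and the assembly factor LTV1 (-0.38). The call of UTP20 was lost without ethanol replicate 1 or 4 (log2(FC) -0.25 and -0.22) and without O/A replicate 1 or 3 (both -0.23), and that of NOP14 without ethanol replicate 3 or O/A replicate 3 (-0.24 and -0.25). NOP14 shares 20.7% of its exonic bases with its antisense gene NOP14-AS1, which held 64.7% of its reads and rose (log2(FC) 0.31), so the value of NOP14 is uncertain. Among the genes not called, TSR1 (-0.22), WDR75 (-0.17), NOB1 (-0.16, the nuclease of the last cut of 18S rRNA), UTP18 (-0.15) and RRP9 (-0.15) passed on the adjusted p-value alone, with a log2(FC) inside the threshold. TSR1 shares 23.9% of its exonic bases with SRR, a downregulated gene with 9.46% of its reads. RRP12 (-0.11) and UTP6 (-0.04) had adjusted p-values of 0.0552 and 0.377 in edgeR.

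Subunits of the same processome part changed by unequal amounts. WDR75, UTP4, WDR43 and UTP15 belong to it, and the ratio of UTP15 to WDR75 per exonic length was 0.438 to 0.461 in ethanol and 0.294 to 0.333 in O/A. The ratio of UTP4 to WDR43 overlapped between groups, at 0.480 to 0.513 and 0.493 to 0.539.

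Of the 11 genes for large subunit maturation, 7 were downregulated and 4 not called, with a median log2(FC) of -0.35. RRS1, a factor that brings the 5S ribonucleoprotein into the pre-large subunit (chr8:66429014-66430733, plus strand), measured 53.0, 50.1, 49.6 and 49.6 CPM in ethanol and 19.6, 22.0, 20.4 and 21.2 CPM in O/A. The O/A libraries were at 41.1% of ethanol, the lowest share among the 44 genes (log2(FC) -1.28, SE 0.0514, adjusted p = 2.29e-27). RRS1 fell from 29.8 ± 0.881 to 11.9 ± 0.620 FPKM (SD, n = 4). NOP2 encodes a methyltransferase of 28S rRNA (chr12:6556863-6568691, minus strand), and measured 9.37, 8.75, 8.03 and 9.21 CPM in ethanol and 5.18, 5.66, 5.98 and 5.23 CPM in O/A. Each O/A library was lower, and this gene had the fewest reads and the widest error of the 44 (log2(FC) -0.68, SE 0.103, adjusted p = 1.52e-07).

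The other downregulated large subunit genes were NOP16 (log2(FC) -0.63), RRP1B (-0.55), PES1 (-0.37), WDR12 (-0.35) and GNL3 (-0.33), which encodes nucleostemin. PES1, BOP1 and WDR12 form the PeBoW complex, and BOP1 had a log2(FC) of -0.21, within the threshold (adjusted p = 9.27e-05 in edgeR). The ratio of PES1 to WDR12 was 3.20 to 3.45 in ethanol and 3.07 to 3.46 in O/A, and so overlapped, whereas that of PES1 to BOP1 was 1.83 to 2.01 in ethanol and 1.67 to 1.73 in O/A. NOC2L (-0.15, adjusted p = 5.21e-05) was within the threshold, and NOC3L (-0.09) and the RNA helicase DDX21 (-0.04) had adjusted p-values of 0.105 and 0.208. DDX21 was at -0.17 under quantile normalization (adjusted p = 1.07e-08 in limma), inside the threshold. Exons of HIGD2A on the other strand share 6.31% of the exonic bases of NOP16, with 49.8% of its reads. For WDR12 and GNL3, genes on the other strand (NBEAL1, CARF and GLT8D1) share at most 1.76% of exonic bases. PBRM1 lies over GNL3, SNTB2 and CHTF8 over UTP4 and PDXDC1 over RRN3, without shared exons.

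Promoter sequence was also examined, and a link between it and the changes in mRNA was not tested. RefSeq promoters (GRCh38.p14, 250 bases before to 50 after a start site) were found for 37 of the 44 genes, in 44 windows. BOP1, NOLC1, NOP58, RRP12, RRP1B, RRS1 and TCOF1 had no entry. The letters CACGTG, the canonical E-box, read the same on both strands, and were present in 18 of the 44 windows (40.9%) and in 2548 of 35116 windows of all genes (7.26%). By gene, 18 of 37 (48.6%) held the motif, against 1300 of 10688 tested genes with a promoter (12.2%). The motif was in 11 of the 22 downregulated genes with a promoter and in 7 of the 15 others. A match is a description of letters in a window and not a site of binding.

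The sequences below, on the strand of each gene and read 5′ to 3′, show the motif (capitals) in 4 downregulated genes and in 2 genes of the snoRNPs that were not called.
BYSL, chr6:41921515-41921544, plus strand: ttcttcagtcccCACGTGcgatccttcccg
NOP2, chr12:6568242-6568268, minus strand: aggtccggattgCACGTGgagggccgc
NAT10, chr11:34105602-34105631, plus strand: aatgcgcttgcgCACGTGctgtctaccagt
UTP20, chr12:101280083-101280112, plus strand: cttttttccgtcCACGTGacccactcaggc
FBL, chr19:39846356-39846385, minus strand: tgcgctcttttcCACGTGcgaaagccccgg
NOP10, chr15:34343130-34343159, minus strand: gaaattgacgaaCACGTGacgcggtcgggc
The motif began 15, 10 and 11 bases before the start site in NAT10, UTP20 and NOP10, and after it in BYSL, NOP2 and FBL.

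Other genes of the same pathway, listed by role from general knowledge, were called in both directions. Of 112 such genes 111 were tested, with UTP14C at 0 counts, and 41 were downregulated (36.9%) and 7 upregulated, with a median log2(FC) of -0.17. Of 10 other RNA polymerase I genes, 3 were downregulated and 1 upregulated, with a median of -0.23. POLR1G, a subunit of the polymerase, fell most (log2(FC) -1.02), from 595 to 671 counts in ethanol to 282 to 328 in O/A, and TAF1A, a subunit of the promoter selectivity factor, rose (0.55). Of 40 other small subunit genes tested, 15 were downregulated and 1 upregulated, with a median of -0.17, WDR3 at one end (-0.72) and the methyltransferase EMG1 at the other (0.26). The number upregulated in that list was 0 with library totals alone, at a mean FPKM of at least 5, on both FPKM scales and without O/A replicate 1. Of 47 other large subunit genes, 20 were downregulated and 2 upregulated, with a median of -0.20. URB2 fell most, with a log2(FC) of -1.25, and RSL24D1, a factor of the late nuclear particle, rose most (0.70). The RNA exosome, which trims the precursor and also degrades many other RNAs, had 3 of 14 genes downregulated (EXOSC2 lowest, -0.48) and 3 upregulated (EXOSC6 highest, 0.98), with a median of -0.08. The log2(FC) was below 0 for 9 of these 14 genes. The number upregulated among them was 4 with DESeq2, with median-ratio scaling and without some single libraries, and 2 on both FPKM scales.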

How the data were processed

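Poly(A)-selected RNA of N/TERT-1 cells was sequenced in 8 libraries, 4 per treatment, grouped by the sample titles. The authors used HISAT2 2.0.1 to align the read pairs (GRCh38.p13) and HTSeq 0.6.1 to obtain a count per gene. The counts were deposited without normalization. The authors derived the deposited FPKM from these counts, and dividing a count by exonic size and library total gave the same value to within 0.005. FPKM uses plain totals, so its ratios differ slightly from TMM-scaled values. A deposited table of the authors' DESeq2 comparison (fold changes and p-values) was not used.

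Counts were tested with edgeR 4.0.16 in R 4.3.3 (TMM, robust quasi-likelihood test), over genes that reached 10 counts in 4 or more libraries, with Benjamini-Hochberg adjustment over all 14893 of them. In place of the study's DESeq2 test, edgeR was the main test and DESeq2 1.42.0 an alternative. Genes were called where the absolute log2(FC) was above 0.25 and the adjusted p-value no higher than 0.05. On simulated data for this comparison, with 14893 genes, edgeR recovered 72 of 100 genes changed by 0.5 and 93 of 100 changed by 1 on the log2 scale, with 5 false calls. Far fewer genes were changed there than the 5165 called in the real data, so these rates may differ from the real ones. Alternatives were other tests, scalings (limma 3.58.1 for quantiles and FPKM), filters, pseudocounts and thresholds, the replicate number as a block, and each library left out.

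The 44 genes, their roles and the other lists were chosen with earlier results of these data known. Values in every library are given for the genes with the largest 2 absolute changes of each role and the highest FPKM, and from each other list the largest called rise and fall are named, as are overlapping genes and pseudogenes with over 5% of a member's reads. FBL was singled out and ratios were formed after values were seen. Coordinates are those of the deposited table, and all 44 matched GENCODE 44.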

Additional observations from a re-analysis of the deposited data

Results flagged for a closer look

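In each treatment, the highest and lowest of the 4 libraries were compared with the others by Dixon's gap ratio against its 95% critical value for each of the 44 genes. Of 88 such groups 7 were flagged, where chance gives 4.4 at 1 in 20. In TMM-scaled CPM, NOP58 stood high in ethanol replicate 3 at 138.9 (others 132.1 to 132.4) and RRS1 in ethanol replicate 1 at 53.01 (others 49.55 to 50.14), while WDR12 was low in ethanol replicate 1 at 61.57 (others 66.23 to 66.38). POLR1A was low in O/A replicate 1 at 57.98 (others 65.17 to 66.61) and NAT10 in O/A replicate 4 at 63.96 (others 70.32 to 71.36). UTP3 was high in O/A replicate 2 at 42.73 (others 39.48 to 40.02), and NPM1 in O/A replicate 1 at 1066 (others 1029 to 1035). For the 6 downregulated genes among them, every O/A library was below every ethanol library.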

How the results depend on the processing

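Of the 44 genes, 35 kept direction and call in every alternative run for them (17, or 16 for NOP2, POLR1A and POLR1C, which a mean FPKM of at least 5 removes), among them 24 of the 27 downregulated genes; NOLC1, UTP20 and NOP14 lost the call without single libraries as given above, and TSR1 gained one with library totals alone, with quantiles and on both FPKM scales (log2(FC) -0.27, -0.27, -0.27 and -0.26) and BOP1 with library totals alone and on log2(FPKM + 0.1) (both -0.25). On the adjusted p-value alone, RRN3, NPM1, UTP6, RRP12, NOC3L and DDX21 also passed in at least 1 alternative, each with a log2(FC) inside the threshold. RRP9 no longer passed with DESeq2, with quantiles, with no filter, or without ethanol replicate 3 or 4 or O/A replicate 2 or 4. NOP10 no longer passed on both FPKM scales. Downregulated genes numbered 27 to 29 across tests, scalings and pseudocounts, 24 of 41 at a mean FPKM of at least 5, 25 to 27 with a library left out, 34 with no fold change threshold (1 upregulated, NOP10), 11 above 0.5 and 1 above 1, so the threshold sets the count, as it does for all genes tested (7999, 2636 and 797 in place of 5165; 2183 at a mean FPKM of at least 5). The median of the 44 genes ran from -0.37 to -0.31, and was -0.29 over the 41 genes left at a mean FPKM of at least 5, and that of all genes from -0.0458 with library totals alone to 0.023 with no filter.

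With no threshold, above 0.5 and above 1, calls were 8, 2 and 1 for the other RNA polymerase I genes (7 with library totals alone and on log2(FPKM + 0.1) and log2(FPKM + 1)), 27, 7 and 0 for small subunit, 37, 7 and 1 for large subunit and 11, 1 and 0 for exosome genes. Small values turned sign. FBL was -0.0286 with library totals, -0.0335 with quantiles, -0.0303 on log2(FPKM + 0.1), -0.0298 on log2(FPKM + 1) and -0.0126 to 0.0545 with a library left out. GAR1 was -0.0246 with totals, -0.0242 and -0.0234 on the FPKM scales and -0.0386 to 0.0677 with a library left out. NHP2 was -0.0378 with totals, -0.0307 with quantiles, -0.0080 at a mean FPKM of at least 5, -0.0380 and -0.0373 on the FPKM scales and -0.0001 to 0.0308 with a library left out. NPM1 was 0.0006 with DESeq2 and with median-ratio scaling, -0.12 with quantiles and -0.0136 to 0.0149 with a library left out.

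Same-numbered libraries did not deviate together (correlations -0.0226 to 0.0675, not every library closest to its own number). With the replicate block, 27 of the 44 genes and 5160 of all genes were called. Depth limits NOP2 most.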

Other observations

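Some of the 44 genes carry small nucleolar RNA genes within their span, as is known of genes of the translation machinery. Annotated snoRNA genes lay on the same strand inside 7 of the 44 genes (15.9%), namely NOP56 with 5, NOP58 with 4, DKC1 with 2, NCL with 3, WDR43 with 3, TSR1 with 2 and GNL3 with 6, and inside 199 of 12300 protein-coding genes tested (1.62%). Of these 7 host genes 6 were downregulated (median log2(FC) -0.34), and of the 37 without a snoRNA gene 21 were downregulated (median -0.27). Of the 199 hosts among all protein-coding genes tested, 37 were downregulated, and their median was 0.02. The libraries were made from poly(A)-selected RNA, and each of these snoRNA genes held at most 34 reads over the 8 libraries, too few to give their own levels.

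Across the 44 genes, the log2(FC) had a Spearman correlation of 0.38 with the mean FPKM, -0.15 with exonic length and -0.04 with the span of the gene, against 0.08, -0.03 and 0.02 over all genes tested. These are descriptions across genes that share libraries, given with no test. The median level was 16.3 FPKM for the 44 genes and 4.17 over all genes tested.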
